A study of Homo sapiens with 60 samples.

Results

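The genes described are 38 genes of DNA replication and S phase, found by symbol among the 60675 genes of the deposited table of expected counts. All 38 were matched to 1 row each, and all 38 passed the filter on low counts that left 16763 genes for testing. They are the genes of origin licensing (ORC1, ORC6, CDC6, CDT1, MCM2 to MCM7), helicase activation (MCM10, CDC45, GINS1 to GINS4), the replicative polymerases (POLA1, POLA2, PRIM1, POLD1, POLE, POLE2), the sliding clamp and its loader (PCNA, RFC2 to RFC5), Okazaki fragment processing (FEN1, LIG1), nucleotide supply (RRM1, RRM2, TYMS, TK1), chromatin assembly (CHAF1A, CHAF1B) and S phase entry (CCNE1, CCNE2, E2F1).

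HT29 cells, a line from a human colorectal adenocarcinoma, gave the RNA. They had been kept for 24 h with the DMSO vehicle or with an extract from a set of 8 herbal medicines used for digestion, and 60 libraries in 25 groups resulted. Both water extracts were formulas of several herbs: Sayeok-tang, with 3 libraries at each dose, and Bojungikgi-tang, with 2. The rest were made in 70% ethanol from single herbs. Scutellariae Radix (the root of skullcap), Pinelliae Tuber, Zingiberis Rhizoma (ginger, dried) and Zingiberis Rhizoma Recens (ginger, fresh) had 3 libraries at each dose, while Coptidis Rhizoma and Zizyphi Fructus (jujube fruit) had 1. The high, medium and low doses were 500, 100 and 20 µg/mL, except that Coptidis Rhizoma was given at 320, 64 and 12.8 µg/mL, which by the series text is the concentration that inhibited by 20% and its dilutions. Vehicle had n = 3, and the labels give it as 0.1% DMSO while the series text gives 2%. No label says that replicates came from separate cultures, so the spread between them may be technical.

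The genes of replication are copied into RNA mainly as a cell passes from G1 into S phase, when E2F factors are released from the retinoblastoma proteins. The origin recognition complex, CDC6 and CDT1 load the MCM2 to MCM7 helicase on origins. CDC45 and the GINS complex then switch the helicase on, DNA polymerase alpha with its primase starts the strands, and polymerases delta and epsilon extend them on the PCNA clamp.

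Promoters of 4 members are printed because they carry the E2F motif that many of these genes share, with matches in capitals, the rest in lower case, and each read 5′ to 3′ along its gene. They are RefSeq sequences of GRCh38.p14, 250 bases before and 50 bases after the gene's start.
CDC6 promoter (chr17:40287629-40287928, plus strand): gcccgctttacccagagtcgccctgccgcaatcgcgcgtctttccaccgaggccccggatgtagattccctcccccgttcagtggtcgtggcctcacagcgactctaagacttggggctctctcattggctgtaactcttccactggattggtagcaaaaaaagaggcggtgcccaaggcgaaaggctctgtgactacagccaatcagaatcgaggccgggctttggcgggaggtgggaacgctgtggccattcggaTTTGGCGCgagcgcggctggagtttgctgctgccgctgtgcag
MCM6 promoter (chr2:135876394-135876693, minus strand): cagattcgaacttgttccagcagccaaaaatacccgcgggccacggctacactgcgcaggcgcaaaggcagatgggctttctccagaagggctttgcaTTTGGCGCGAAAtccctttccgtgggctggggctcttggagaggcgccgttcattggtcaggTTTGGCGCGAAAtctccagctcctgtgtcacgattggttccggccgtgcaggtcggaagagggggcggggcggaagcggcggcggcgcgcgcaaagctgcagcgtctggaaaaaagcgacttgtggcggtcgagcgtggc
MCM2 promoter (chr3:127598161-127598460, plus strand): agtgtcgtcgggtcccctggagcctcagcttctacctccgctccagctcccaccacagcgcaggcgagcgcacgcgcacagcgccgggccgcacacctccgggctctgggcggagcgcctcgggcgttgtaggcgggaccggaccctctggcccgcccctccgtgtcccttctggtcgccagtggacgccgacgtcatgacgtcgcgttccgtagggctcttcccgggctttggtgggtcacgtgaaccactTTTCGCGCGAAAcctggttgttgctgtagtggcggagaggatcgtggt
E2F1 promoter (chr20:33686336-33686635, minus strand): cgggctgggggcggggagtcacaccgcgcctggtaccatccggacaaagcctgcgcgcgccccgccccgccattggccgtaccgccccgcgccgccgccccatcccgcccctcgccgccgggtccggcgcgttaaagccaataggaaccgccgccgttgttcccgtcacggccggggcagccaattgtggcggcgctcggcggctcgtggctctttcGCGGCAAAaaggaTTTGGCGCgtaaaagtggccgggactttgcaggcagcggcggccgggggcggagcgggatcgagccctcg

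CDC6 has 1 match, just after the start, MCM2 has 2 that overlap, MCM6 has 4 in 2 overlapping pairs, and E2F1, itself an E2F factor, has 2. The letters searched were TTTGGCGC, TTTCGCGC, TTTCCCGC and TTTGCCGC on both strands, which can overlap each other. Promoters of 34 of the 38 members were matched, and 18 of these (52.9%) held a match, against 3.99% of the promoters of 27305 genes. The CCAAT box (CCAAT, both strands) was in 20 of the 34 (58.8%), against 39.7% of all promoters. A CHR element (TTTGAA, both strands), a motif known from promoters of mitotic genes, was in 1 of the 34 (2.94%, RRM1), against 18.2% of all. GINS4, MCM5, CCNE2 and MCM4 were not among the matched promoters. A match is a run of letters and says nothing on whether a factor binds there. Only the letters given were searched, so a promoter may also hold E2F sites of other letters that were not marked.

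Libraries held 18.02 to 35.82 M counts, and levels are given as CPM, the count of a gene relative to the library total, scaled by TMM, a factor per library that evens out its composition. Epithelial markers were high in every library (EPCAM from 344 to 833 CPM), and defining markers of leukocytes, fibroblasts and endothelium (PTPRC, CD3E, COL1A2, COL3A1, DCN, CDH5 and VWF) were at or near 0, with at most 0.144 CPM. The colon markers CDX1 and CEACAM5 were low, at 0.27 to 2.28 CPM and 1.56 to 12.5 CPM. In the fit of 54 libraries 3 stand apart by more than 10 median absolute deviations, namely vehicle replicate 1 and Scutellariae Radix low replicate 3 in their share of counts from ribosomal protein genes (7.11% and 9.24%) and Pinelliae Tuber high replicate 2 in its mitochondrial share (14.3%). The titles put all 60 libraries in BatchC. Vehicle carries a library code set of its own, so in a comparison with vehicle alone an extract's difference and that of its code set cannot be told apart. The Coptidis Rhizoma and Zizyphi Fructus libraries share a code set. In RNA of whole cultures, fewer cells that express a gene and less RNA per cell cannot be told apart either.

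**Figure D1:**
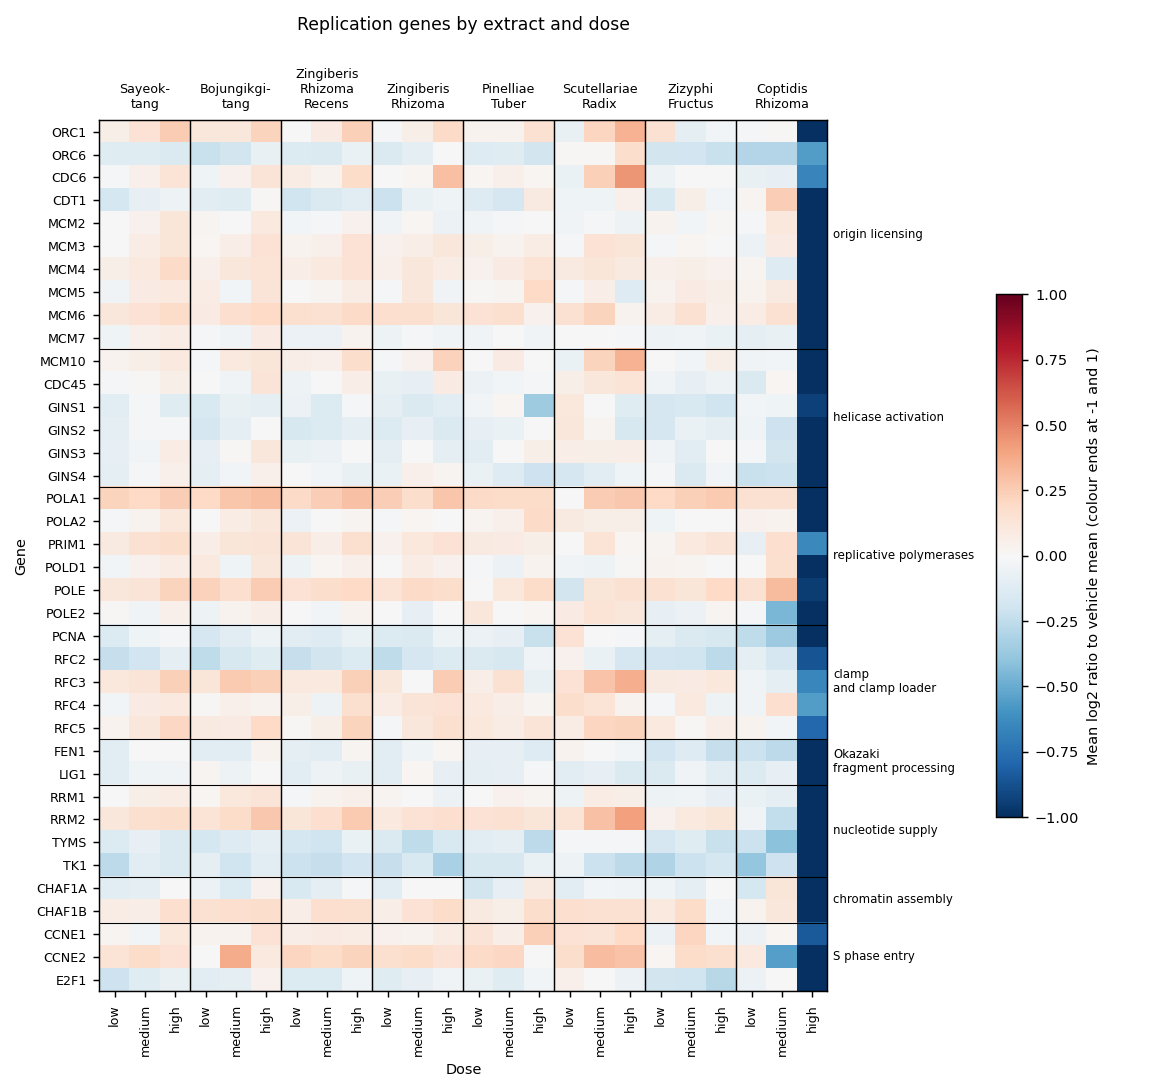
Mean log2 ratio to the vehicle mean of each of the 38 genes (rows, grouped by role) in each extract and dose (columns, low to high within each extract, n = 1 to 3 libraries). The high dose of Coptidis Rhizoma, 1 library, lies below vehicle in all 38 rows.

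At the high dose of Coptidis Rhizoma all 38 genes were below the vehicle mean and below each of the 3 vehicle libraries. Their median log2 ratio to the vehicle mean was -1.37, from -2.35 for CCNE2 to -0.56 for RFC4, beside a median of -0.02 over all 16763 genes. Past 2-fold lower were 27 of the 38, where 6.28% of all genes were that low. The sum of the 38 genes was 1489 CPM in that library, against 3927 to 3995 CPM in the vehicle libraries. This dose was sequenced once, so there is no test and no replicate check, and intervals given for it (95%, exact Poisson) cover counting error only.

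S phase entry and origin licensing held the genes with the lowest ratios. CCNE2 is a cyclin that activates CDK2 for entry into S phase. It stood at 2.05 CPM (95% interval 1.54 to 2.68, 54 counts) at high-dose Coptidis Rhizoma, against 11.3, 12.6 and 13.7 CPM in vehicle. ORC1, the origin recognition subunit whose level follows the cell cycle, stood at 6.28 CPM (5.36 to 7.31), against 30.9, 32.2 and 32.5 CPM in vehicle, which is 5.08-fold lower than their mean. E2F1 had 16.5 CPM (15.0 to 18.1) at that dose, against 80.3, 72.6 and 65.4 CPM in vehicle. None of these intervals reaches a vehicle library. CCNE1, the other cyclin E gene, had a smaller difference, with 10.9 CPM at the high dose against 19.3 to 20.8 CPM in vehicle.

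Among the 10 licensing genes the median log2 ratio was -1.45, and 8 were past 2-fold lower. MCM4, a subunit of the helicase ring, had 85.9 CPM (82.4 to 89.5) at high-dose Coptidis Rhizoma, against 343, 328 and 340 CPM in vehicle. The 6 subunits of the ring ranged from -1.96 for MCM4 to -1.22 for MCM7. CDC6, which loads the ring, and ORC6 were the licensing genes nearest to vehicle, at -0.66 and -0.56. CDC6 had 50.9 CPM (48.2 to 53.7) at that dose, against 80.5, 77.8 and 83.9 CPM in vehicle.

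In the other roles all genes were below vehicle too, by different amounts. The 2 genes of Okazaki fragment processing, the flap nuclease FEN1 and the ligase LIG1, were at -1.80 and -1.93. Nucleotide supply had a median of -1.56, with the ribonucleotide reductase subunit RRM2 at 85.3 CPM (81.8 to 88.9), against 269, 280 and 299 CPM in vehicle. Helicase activation had a median of -1.33, led by GINS2 at -1.87. The polymerase genes had a median of -1.20, from POLA2 at -1.65 to the primase subunit PRIM1 at -0.65. The clamp and its loader differed within the group. PCNA, the clamp, had 74.4 CPM (71.1 to 77.7), against 272, 236 and 243 CPM in vehicle, a log2 ratio of -1.74. Its loader genes RFC2 to RFC5 ranged from -0.87 to -0.56, and 0 of these 4 was past 2-fold. The histone chaperone subunits CHAF1A and CHAF1B were at -1.22 and -0.99.

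**Figure D2:**
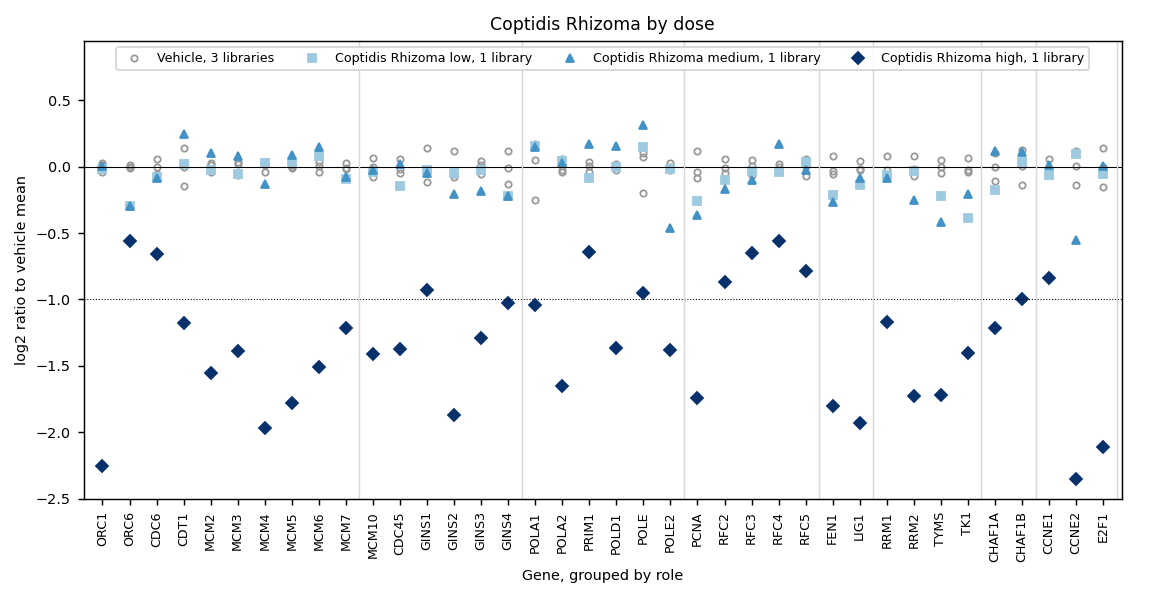
Log2 ratio to the vehicle mean (y axis) of the 38 genes (x axis, grouped by role) in the single Coptidis Rhizoma libraries of the low, medium and high dose and in the 3 vehicle libraries. The dotted line marks 2-fold lower. The high dose lies below all vehicle libraries for 38 of 38 genes, while the low and medium doses lie near 0.

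At the lower doses of Coptidis Rhizoma the genes lay near vehicle. The median log2 ratio was -0.04 at the low dose and -0.04 at the medium dose, and 0 of 38 were past 2-fold at either, where 0.358% and 0.668% of all genes were that low. At the low dose 16 genes were below, 19 within and 3 above the 3 vehicle libraries. At the medium dose 18 were below, 10 within and 10 above. The share of all genes outside the vehicle libraries was not computed, so these counts give no result about the members. CCNE2 was at -0.55 and POLE2, a subunit of polymerase epsilon, at -0.46 at the medium dose, the largest differences there, while POLE was at 0.32. TK1, the salvage kinase for thymidine, was at -0.38 at the low dose. When the 3 doses were fitted as 1 group against vehicle, 0 of 38 were called (edgeR, 0.0265% of 15114 genes lower). The members' median log2 fold change was -0.36, and 0 of 38 were above 0, against 51% of all genes. Of the 38, 1 had an unadjusted p under 0.05. That fit treats unlike doses as replicates.

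Genes around the members differed in the same high-dose library, where the median over all genes was -0.02 and 6.28% were past 2-fold lower. Of 37 other replication genes 33 were below the vehicle mean and 13 past 2-fold lower, led by UHRF1, the maintenance methylation factor, at -2.19, and the checkpoint adaptor CLSPN at -1.94, whereas the origin subunit ORC4 was at 0.87. Of 25 G1/S regulators 19 were below it, with the ubiquitin ligase subunit SKP2 at -1.86 and E2F2 at -1.86, while the CDK inhibitors CDKN1A and CDKN2B were at 2.49 and 1.32. CDKN1A had 91.6 CPM at the high dose, against 16.7, 15.6 and 15.4 CPM in vehicle. All 20 mitosis genes were below vehicle with a median of -0.61, and 4 were past 2-fold, MKI67, the proliferation marker, at -1.16. Most of this list was below vehicle in the other libraries of this code set too, with 0 past 2-fold lower. At medium and low Coptidis Rhizoma 18 and 19 of the 20 were below, with medians of -0.283 and -0.231. At high, medium and low Zizyphi Fructus 19, 18 and 18 were below, with medians of -0.203, -0.185 and -0.186. The medians over all genes in these medium, low and Zizyphi Fructus libraries were from -0.001 to 0.0. The high-dose Coptidis Rhizoma library had 3.44% mitochondrial counts and 6.61% from ribosomal protein genes, against 7.62% to 8.86% and 5.73% to 7.11% in vehicle. The part of these shares in the result was not tested. The low-dose Coptidis Rhizoma library, with members near vehicle, had 15.2% mitochondrial counts. With DESeq2 size factors and with total counts alone all 38 genes stayed below vehicle, and 27 and 25 were past 2-fold lower.

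**Figure D3:**
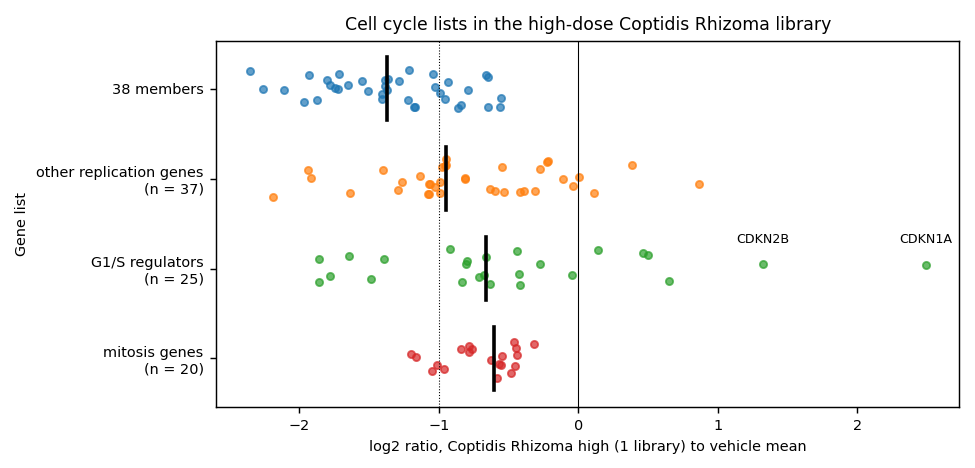
Log2 ratio of the high-dose Coptidis Rhizoma library to the vehicle mean (x axis) for the 38 members and 3 other gene lists (rows). Points are genes, black bars are list medians (-1.37 for the members and -0.61 for the mitosis genes), and the dotted line marks 2-fold lower. CDKN1A and CDKN2B lie far to the right.

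Among the 34 members with a promoter, the 18 with an E2F match had a median log2 ratio of -1.38 at high-dose Coptidis Rhizoma, and 14 were past 2-fold lower. The 16 without a match had a median of -1.19, and 9 were past 2-fold lower. The ranges overlapped widely, at -2.11 to -0.65 with a match and -2.26 to -0.56 without one, and the difference was not tested. A gene with several starts counted as having a match where any of them did. Genes without a match may still hold E2F sites of other letters, which were not searched.

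Among the extracts with replicates, Scutellariae Radix had the largest number of called members against vehicle and also the largest share of all genes called. At its high dose 9 of the 38 rose and 2 fell against vehicle (28.9%, where 23.6% of all genes were called in either direction, edgeR's quasi-likelihood test with Benjamini-Hochberg adjustment at 0.05). The genes that rose were CDC6, ORC1, MCM10, MCM3, RFC3, RFC5, POLA1, RRM2 and CCNE2. TK1 and LIG1 fell. The median log2 fold change of the 38 was 0.05, beside -0.02 over all genes, and 24 of 38 were above 0, against 46.6% of all genes. The share called is near that of all genes and gives no result about the group as a whole.

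In GENCODE 29 on GRCh38 CDC6 (ENSG00000094804) lies at chromosome 17, 40287633 to 40304657, plus strand, and RRM2 (ENSG00000171848) at chromosome 2, 10120698 to 10131419, plus strand. ORC1 (ENSG00000085840) lies at chromosome 1, 52372829 to 52404459, minus strand, and MCM10 (ENSG00000065328) at chromosome 10, 13161554 to 13211104, plus strand. The values are of whole genes.

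CDC6 had 111.7, 108 and 110.1 CPM at the high dose of Scutellariae Radix, against 80.5, 77.8 and 83.9 CPM in vehicle. Its log2 fold change was 0.45 ± 0.06 (SE, adjusted p = 9.93e-08), and the groups did not overlap. RRM2, the reductase subunit that is made in S phase, had 374, 365 and 389 CPM at the high dose, against 269, 280 and 299 CPM in vehicle (0.41 ± 0.05, adjusted p = 2.18e-09). These were the smallest p-values among the members in this comparison. MCM10, which binds the loaded helicase as it is switched on, had 45.4, 48.4 and 46.8 CPM at the high dose and 36.7, 34.8 and 38.6 CPM in vehicle (0.35 ± 0.06, adjusted p = 4.99e-05). ORC1 had 40.4, 39.7 and 42.0 CPM at that dose, against 30.9, 32.2 and 32.5 CPM in vehicle (0.35 ± 0.07, adjusted p = 7.60e-05). All high-dose libraries again lay above all vehicle libraries for both genes.

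The loader genes RFC3 and RFC5 rose as well. RFC3 had 101, 99.7 and 111 CPM at the high dose, against 83.4, 77.4 and 81.1 CPM in vehicle (0.37 ± 0.09, adjusted p = 0.00175). RFC5 had 49.0, 48.8 and 51.1 CPM at the high dose, against 44.0, 40.4 and 42.6 CPM in vehicle (0.23 ± 0.05, adjusted p = 7.22e-04). The loader genes RFC2 (-0.17) and RFC4 (0.03) did not pass the test. POLA1, the catalytic subunit of polymerase alpha, had 42.1, 42.1 and 41.6 CPM, against 29.04, 35.9 and 39.0 CPM in vehicle (0.27 ± 0.10, adjusted p = 0.0386). Here the vehicle libraries spread widely, and the call ended without any 1 library other than vehicle replicate 3. POLA1 was above vehicle in all 18 comparisons of an extract dose with vehicle. Its log2 ratios to the vehicle mean were 0.28, 0.28 and 0.26 at the high dose of Scutellariae Radix and 0.25, 0.22 and -0.49 at the low dose. CCNE2 had 14.1, 15.5 and 16.7 CPM, against 11.3, 12.6 and 13.7 CPM in vehicle (0.30 ± 0.10, adjusted p = 0.0301). The CCNE2 call ended without vehicle replicate 1 or 2 or high-dose replicate 2 or 3. MCM3 rose by 0.12 ± 0.05 (adjusted p = 0.0472), and 0 of the other 5 ring subunits was called. The MCM3 call ended without vehicle replicate 1 or 2 or high-dose replicate 1 or 2, with the replicate block, with only the libraries compared and with no filter on low counts.

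TK1 and LIG1 moved the other way, and TK1 was below vehicle in all 18 comparisons of an extract dose with vehicle. TK1 had 151, 141 and 141 CPM at the high dose, against 181, 170.1 and 169 CPM in vehicle (-0.26 ± 0.09, adjusted p = 0.0235). LIG1 had 97.6, 98.6 and 94.6 CPM at the high dose, against 106, 110.2 and 106 CPM in vehicle (-0.15 ± 0.06, adjusted p = 0.0496). Leaving out any 1 of the 6 libraries ended the LIG1 call, and leaving out vehicle replicate 1 or high-dose replicate 2 or 3 ended that of TK1. The count of called members was 6 without vehicle replicate 1, 7 without vehicle replicate 2, 6 without high-dose replicate 2 and 7 without high-dose replicate 3. CDC6, RRM2, MCM10, ORC1 and RFC3 were called in every fit of this comparison that was run. Without the 3 libraries that stand apart 14 were called, 12 higher and 2 lower, including all 11. That fit called 5171 of all genes, against 3955 with all 54 libraries.

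The medium dose of Scutellariae Radix had 9 members higher than vehicle and 0 lower (9.53% of all genes called). RRM2 rose by 0.30 ± 0.05 (adjusted p = 9.77e-06), CDC6 by 0.24 ± 0.06 (0.00479 adjusted p), and RFC5 by 0.22 ± 0.05 (adjusted p = 0.00377). The others were ORC1, MCM3, MCM6, MCM10, RFC3 and CCNE2. Without vehicle replicate 1 the count was 3, without vehicle replicate 2 it was 4, and without medium-dose replicate 1, 2 or 3 it was 5, 4 and 4. CDC6, RRM2 and RFC5 were called without any 1 of the 6 libraries. At the low dose 0 of 38 were called by edgeR (0.382% of all genes called), with 5 at an unadjusted p under 0.05, and 1 by DESeq2, 1 without low-dose replicate 1 and 1 without low-dose replicate 3.

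**Figure D4:**
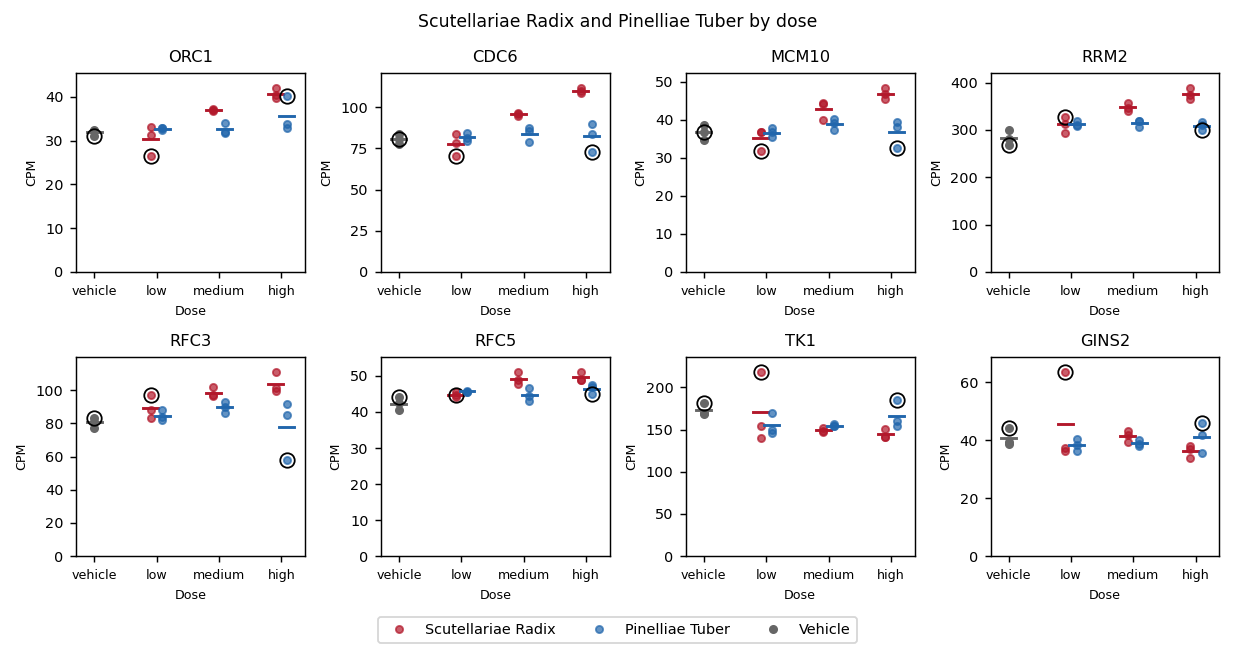
CPM (y axis, from 0) of 8 members in each library of Scutellariae Radix (red), Pinelliae Tuber (blue) and vehicle (grey) by dose (x axis), with bars at group means (n = 3 each) and black rings on the 3 libraries that stand apart. CDC6 at the high dose of Scutellariae Radix, at 108 to 111.7 CPM, lies above every vehicle, low and medium library, and the low-dose GINS2 mean is set by the ringed library at 63.5 CPM.

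High dose against low dose of Scutellariae Radix compares libraries of 1 code set, without vehicle. ORC1, CDC6, MCM3, MCM10, POLE, RFC5 and RRM2 rose and GINS2, RFC2 and TK1 fell, 10 of 38 (22.5% of all genes called). That share of members is near the share of all genes, so it gives no result about the group as a whole. CDC6 had 78.3, 83.7 and 70.5 CPM at the low dose, 96.3, 95.7 and 94.7 CPM at the medium dose and 111.7, 108 and 110.1 CPM at the high dose, so the 3 doses do not overlap, and the high dose differed from the low one by 0.50 ± 0.06 (adjusted p = 8.18e-09). ORC1 had 31.3, 33.1 and 26.6 CPM at the low, 37.0, 37.3 and 36.7 CPM at the medium and 40.4, 39.7 and 42.0 CPM at the high dose (0.42 ± 0.07, adjusted p = 5.87e-06). For both genes each dose lies wholly above the dose before it. MCM10 differed by 0.41 ± 0.06 (adjusted p = 5.36e-06) and RRM2 by 0.27 ± 0.05 (adjusted p = 1.57e-05).

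The 3 falls depend on low-dose replicate 3, the library with 9.24% ribosomal protein counts. GINS2, a GINS subunit, had 37.1, 34.0 and 37.9 CPM at the high dose, against 36.1, 37.4 and 63.5 CPM at the low dose. RFC2 had 48.3, 53.0 and 51.7 CPM at the high dose, against 52.5, 52.7 and 73.4 CPM at the low dose. TK1 had 151, 141 and 141 CPM at the high dose, against 154, 140.0 and 218 CPM at the low dose. In each case the groups overlap, and 1 library is far above the other two. Without the 3 libraries that stand apart the log2 fold changes were -0.02 for GINS2 (adjusted p = 0.858), -0.05 for RFC2 (0.595 adjusted p) and -0.03 for TK1 (adjusted p = 0.774). The rises of POLE and MCM3 were not called there either (adjusted p = 0.372 and 0.276). CDC6 (0.43 ± 0.05), ORC1 (0.33 ± 0.06), MCM10 (0.34 ± 0.06), RRM2 (0.30 ± 0.04) and RFC5 (0.14 ± 0.05) were called with and without them. With only the libraries compared in the fit 1 of the 10 calls remained, that of CDC6, and those of ORC1, MCM10, RRM2 and RFC5 ended. The RFC5 call also ended without low-dose replicate 1 or 3 or high-dose replicate 2 or 3. In the fit that leaves out the 3 libraries that stand apart 11 were called, with RFC3, ORC6, CDT1, CDC45 and TYMS higher and MCM6 lower besides these 5. That fit called 3423 of all genes, against 3764 with all 54 libraries. Leaving out 1 library at a time gave 6 calls without high-dose replicate 1, 5 without high-dose replicate 2, 6 without high-dose replicate 3, 6 without low-dose replicate 3 and 17 without low-dose replicate 2.

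Of 25 G1/S regulators 10 rose and 2 fell at high-dose Scutellariae Radix against vehicle (48%, where 23.6% of all genes were called). This list and the other lists below were chosen with earlier results of these data known, so their shares do not test the lists. The CDK inhibitor CDKN1A rose by 0.91 ± 0.08 (adjusted p = 1.75e-11), with 30.6, 28.3 and 30.9 CPM at the high dose, against 16.7, 15.6 and 15.4 CPM in vehicle. CDK6 and the phosphatase CDC25A, which activates CDK2, rose by 0.67 ± 0.13 and 0.38 ± 0.07 (adjusted p = 1.20e-04 and 6.53e-05), and CDKN2C, an inhibitor of CDK4 and CDK6, fell by 0.61 on the log2 scale. CDKN2B rose by 0.51 ± 0.09 (adjusted p = 1.70e-05). Of 37 other replication genes 8 rose and 4 fell (32.4%), with TOPBP1, an initiation and checkpoint scaffold, at 0.38 ± 0.09 and MCMBP, which binds the helicase ring, at 0.23 ± 0.05, and the histone chaperone ASF1B at -0.34 ± 0.08. Of 20 mitosis genes 1 rose (BUB1B) and 3 fell (CCNB2, AURKA and BIRC5), a share of 20% that is near that of all genes. The BIRC5 call ended without vehicle replicate 1, and that of BUB1B without vehicle replicate 1 or high-dose replicate 2, with only the libraries compared and with no filter on low counts. CCND1 (0.06) and MKI67 (-0.07) did not pass the test.

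Pinelliae Tuber shares the code set of Scutellariae Radix, so the extracts can be set against each other without vehicle. At the high dose 7 members were higher with Scutellariae Radix than with Pinelliae Tuber and 1 was lower (22.8% of all genes called). The members' share is near that of all genes and gives no result about the group as a whole. RRM2 had 374, 365 and 389 CPM with Scutellariae Radix, against 309.6, 299.8 and 316 CPM with Pinelliae Tuber (0.29 ± 0.05, adjusted p = 5.67e-06). CDC6 had 111.7, 108 and 110.1 CPM with Scutellariae Radix, against 83.9, 72.6 and 90.1 CPM with Pinelliae Tuber (0.42 ± 0.06, adjusted p = 3.88e-07). MCM10 (0.35), RFC3 (0.41), ORC6 (0.36), ORC1 (0.19) and CCNE2 (0.28) were higher too, though for ORC1 and CCNE2 the groups overlap. The helicase subunit MCM5 was lower, at 100.7, 106 and 90.6 CPM, against 114, 157 and 108 CPM with Pinelliae Tuber. Its highest value is replicate 2, with 14.3% mitochondrial counts, and without the 3 libraries that stand apart it was not called (-0.16, adjusted p = 0.0776), nor was CCNE2 (adjusted p = 0.347). That fit called 7 members, all higher, 6 of them among the 8, with CDC6 at 0.34 ± 0.05, RRM2 at 0.26 ± 0.04 and RFC3, which is lowest in Pinelliae Tuber high replicate 2, at 0.24 ± 0.06. Without Pinelliae Tuber high replicate 3 the count was 13. When these 6 libraries alone were fitted, 0 members were called.

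The dose differences of both extracts were also set against each other, as the high against low difference of Scutellariae Radix minus that of Pinelliae Tuber. CDC6 (0.50 ± 0.08, adjusted p = 3.23e-05), MCM10 (0.41 ± 0.09, adjusted p = 0.00248), RRM2 (0.29 ± 0.06, adjusted p = 0.00189) and ORC1 (0.30 ± 0.09, adjusted p = 0.0361) had a larger dose difference with Scutellariae Radix, and RFC2 a lower one (-0.33 ± 0.11, adjusted p = 0.0441). That is 5 of 38, where 9.57% of all genes were called, shares that lie near each other and give no result about the group as a whole. Without the 3 libraries that stand apart CDC6, MCM10, RRM2 and ORC1 were called, at 0.35, 0.26, 0.31 and 0.31, and RFC2 was not (-0.11, adjusted p = 0.49). With only the libraries compared in the fit 0 were called. The count was 9 without Pinelliae Tuber high replicate 1 or 3, 8 without Scutellariae Radix low replicate 2, and 3 without Scutellariae Radix high replicate 1 or 3 or Pinelliae Tuber low replicate 2 or 3.

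Against vehicle, 0 of 38 were called for high-dose Pinelliae Tuber by edgeR (5.09% of all genes called), with 11 at an unadjusted p under 0.05 and 4 called by DESeq2. The count was 6 without high-dose replicate 1, 2 without replicate 2, 8 without replicate 3 and 1 without vehicle replicate 3. High against low dose, CHAF1A alone was called (0.28 ± 0.07, adjusted p = 0.0297, 1.78% of all genes called), with 46.9, 59.2 and 45.9 CPM at the high dose, against 39.9, 43.1 and 42.3 CPM at the low dose. The highest value is again replicate 2, and without the 3 libraries that stand apart 0 were called (CHAF1A 0.15, adjusted p = 0.35). The count was 0 without high-dose replicate 2 or any 1 low-dose library, 5 without high-dose replicate 1 and 6 without high-dose replicate 3.

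Fresh ginger had 7 members higher than vehicle at the high dose and 0 lower (6.36% of all genes called), 5 of them of origin licensing. RRM2 had 325, 351 and 342 CPM with fresh ginger, against 269, 280 and 299 CPM in vehicle (0.26 ± 0.05, adjusted p = 3.31e-04). RFC5 had 50.2, 50.4 and 47.9 CPM with fresh ginger, against 44.0, 40.4 and 42.6 CPM in vehicle (0.23 ± 0.05, adjusted p = 0.00565). Neither gene's groups overlap. ORC1 rose by 0.24 ± 0.07, MCM6 by 0.19 ± 0.06, CDC6 by 0.19 ± 0.06, MCM3 by 0.15 ± 0.05 and MCM4 by 0.15 ± 0.04 (adjusted p from 0.0225 to 0.0417). The count was 2 without vehicle replicate 1 or 2 or high-dose replicate 1 or 3, and 3 without high-dose replicate 2. RRM2 and RFC5 were called without any 1 of the 6 libraries. At the medium dose RRM2 alone was called (0.17 ± 0.05, adjusted p = 0.0428, 2.16% of all genes called), and 0 without vehicle replicate 1 or 2 or any medium-dose library.

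Dried ginger had 6 members higher and 1 lower at the high dose (13.1% of all genes called). The share of members is not far from that of all genes and gives no result about the group. CDC6 had 97.2, 98.1 and 103 CPM with dried ginger, against 80.5, 77.8 and 83.9 CPM in vehicle (0.30 ± 0.06, adjusted p = 3.10e-04). TK1 had 144, 132 and 138 CPM with dried ginger, against 181, 170.1 and 169 CPM in vehicle (-0.33 ± 0.09, adjusted p = 0.00968). The libraries of each group lie wholly on one side of those of the other. RFC3 rose by 0.26 ± 0.09, MCM10 by 0.23 ± 0.06, ORC1 by 0.19 ± 0.07, RRM2 by 0.17 ± 0.05 and RFC5 by 0.16 ± 0.05 (adjusted p from 0.00897 to 0.0471). The count was 3 without vehicle replicate 1, vehicle replicate 2 or high-dose replicate 2, and 4 without high-dose replicate 3. CDC6 was called without any 1 of the 6 libraries.

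Of the formulas, Sayeok-tang had 4 members higher at the high dose (2.85% of all genes called) and Bojungikgi-tang 1 (0.626% of all genes called). MCM4 had 387, 389 and 379 CPM with Sayeok-tang, against 343, 328 and 340 CPM in vehicle (0.19 ± 0.04, adjusted p = 0.00655). ORC1 (0.26 ± 0.07), RFC5 (0.21 ± 0.05) and RRM2 (0.17 ± 0.05) rose as well. The Sayeok-tang count was 2 without vehicle replicate 1, 0 without vehicle replicate 2, and 1 without high-dose replicate 1 or 2. RRM2 had 343 and 340 CPM with Bojungikgi-tang, against 269, 280 and 299 CPM in vehicle (0.27 ± 0.05, adjusted p = 0.00152), a call that ended without high-dose replicate 2. Without the 3 libraries that stand apart, vehicle replicate 1 among them, the counts were 7 for Sayeok-tang and 6 for Bojungikgi-tang. Calls over all genes rose there too, to 1368 and 412 genes, against 477 and 105 with all 54 libraries. Between the formulas at the high dose, 0 of 38 differed by edgeR (0.00597% of all genes called), 0 at an unadjusted p under 0.05, and 0 by DESeq2. With the gingers the same comparison, fresh against dried, called 0 of 38 (2.26% of all genes called), with 3 at an unadjusted p under 0.05 and 0 by DESeq2. The differences in dose response, high against low, of Sayeok-tang minus Bojungikgi-tang and of fresh minus dried ginger called 0 members by edgeR (0.0% and 0.644% of all genes called) and 0 by DESeq2, with 0 and 2 at an unadjusted p under 0.05.

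**Figure D5:**
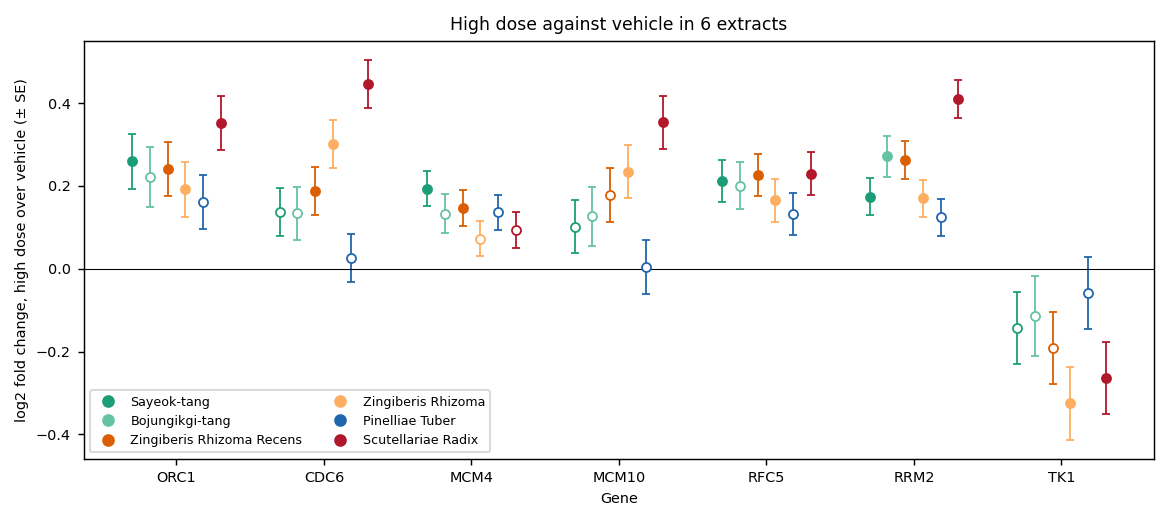
Log2 fold change of the high dose over vehicle (y axis, ± SE) of 7 members in the 6 extracts with replicates. Filled points were called at an adjusted p under 0.05 and open points were not. All 6 share the vehicle libraries. RRM2 ranges from 0.12 for Pinelliae Tuber to 0.41 for Scutellariae Radix, and TK1 from -0.33 for Zingiberis Rhizoma to -0.06 for Pinelliae Tuber.

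Over the 18 comparisons of an extract dose with vehicle, which share the same 3 vehicle libraries, 13 members (34.2%) were called at least once, 11 higher and 2 lower. Of all 16763 genes 32.1% were called at least once, so the members' share is near that of all genes. RRM2 was called in 7 of the 18, with log2 fold changes between 0.10 and 0.41 over all of them. ORC1 and RFC5 were called in 5 each and CDC6 in 4. TK1 was called in 2, with values between -0.33 and -0.02, so it was below 0 in all 18. RRM2, CCNE2, POLA1, MCM4, MCM6, PRIM1 and CHAF1B were above 0 in all 18. Over all 32 comparisons 19 members had no call in the edgeR fits of 54 and of 6 libraries. Other fits called some of these, and without the 3 libraries that stand apart CDC45, CDT1, TYMS, CCNE1, RRM1, MCM2, POLA2, FEN1 and CHAF1B had at least 1 call.

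At the medium dose 0 of 38 were called by edgeR for Sayeok-tang (0.793% of all genes called), Bojungikgi-tang (1.49%), dried ginger (1.06%) and Pinelliae Tuber (2.11%), with 8, 7, 6 and 4 members at an unadjusted p under 0.05 and 1, 3, 2 and 2 called by DESeq2. At the low dose 0 of 38 were called by edgeR for Sayeok-tang (3.3% of all genes called), Bojungikgi-tang (0.424%), fresh ginger (3.1%), dried ginger (1.99%) and Pinelliae Tuber (0.543%), with 5, 4, 7, 5 and 4 at an unadjusted p under 0.05 and 2, 1, 3, 2 and 1 called by DESeq2. Without vehicle replicate 3 the counts were 1, 2, 1 and 1 in the order given for the medium dose and 2, 0, 1, 1 and 1 for the low dose.

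The high dose against the low dose of the same extract does not use vehicle. For Sayeok-tang 35 of 38 genes were above 0 with a median log2 fold change of 0.11, for Bojungikgi-tang 36 with a median of 0.11 and for fresh ginger 37 with a median of 0.09, where 50.4%, 50.2% and 49.9% of all genes were above 0 and the medians over all genes were 0.00, 0.00 and 0.00. Sayeok-tang had 0 calls by edgeR and 1 by DESeq2 (0.382% of all genes called, 8 members at an unadjusted p under 0.05), and Bojungikgi-tang 0 by both (0.0656% of all genes called, 4 members at an unadjusted p under 0.05). With only the libraries compared in the fit 7 members were called for Sayeok-tang and 4 for Bojungikgi-tang, all higher. Without the 3 libraries that stand apart 4 were called for Sayeok-tang and 0 for Bojungikgi-tang. Calls over all genes rose in the latter fit too, to 361 and 41 genes, against 64 and 11 with all 54 libraries. The member median of each library lay in dose order for Sayeok-tang, at -0.03 to 0.00 at the low, 0.03 to 0.05 at the medium and 0.06 to 0.09 at the high dose, with no overlap between doses. Bojungikgi-tang, with 2 libraries per dose, had the same order, at -0.0144 to 0.0209, 0.0234 to 0.0309 and 0.1005 to 0.1167. Fresh ginger had RFC5 higher (0.489% of all genes called), with 50.2, 50.4 and 47.9 CPM at the high dose, against 43.9, 42.1 and 42.1 CPM at the low dose (0.21 ± 0.05, adjusted p = 0.0356), a call that ended without any 1 of the 6 libraries. DESeq2 called 3 members there, and 3 were called without the 3 libraries that stand apart. The latter fit called 430 of all genes, against 82 with all 54 libraries.

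Dried ginger had 3 members higher at the high dose than at the low dose (4.34% of all genes called). Of the 38, 27 were above 0, against 50.3% of all genes. CDC6 had 97.2, 98.1 and 103 CPM at the high dose, against 77.6, 83.0 and 82.9 CPM at the low dose (0.29 ± 0.06, adjusted p = 5.67e-04). MCM10 (0.24 ± 0.06, adjusted p = 0.0166) and RFC5 (0.18 ± 0.05, adjusted p = 0.0263) were the others. CDC6 alone stayed called without any 1 library, and the count was 1 without low-dose replicate 2, low-dose replicate 3 or high-dose replicate 3. The count was 6 without the 3 libraries that stand apart and 8 with only the libraries compared. The former fit called 1795 of all genes, against 727 with all 54 libraries.

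Zizyphi Fructus, with 1 library per dose, left the genes near vehicle. Median log2 ratios were -0.04, -0.03 and -0.01 at the low, medium and high dose, and 0 of 38 were past 2-fold lower at any of them (0.298%, 0.298% and 0.435% of all genes). With the 3 doses as 1 group TK1 was lower (-0.23 ± 0.05, adjusted p = 0.04999, 2.78% of 15319 genes called). That call ended without vehicle replicate 2 or any 1 Zizyphi Fructus library, and 6 members were called without vehicle replicate 1 or 3.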

How the data were processed

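RNA-seq of HT29 cells was analysed from the expected counts per gene that the authors deposited, where the submitters' processing notes name RSEM 1.3.3, STAR 2.7.3a, FastQC 0.11.9 and Trim Galore 0.6.5 with GRCh38. The annotation release was not given in the sources used here, nor was the strand setting. Per the labels' protocols, 1 µg of total RNA with a RIN above 7 went into a directional kit and was read as 100 base pairs of paired ends. Expected counts were rounded. The table also holds 210 columns of other samples, which were not used. Of its 60675 IDs, 57055 were matched in GENCODE 29.

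A single fit of 54 libraries in 19 groups was made with edgeR 4.0.16 (R 4.3.3): TMM scaling, filterByExpr (16763 genes), quasi-likelihood tests and Benjamini-Hochberg adjustment over all genes, with calls at 0.05. All 19 groups share 1 estimate of the spread. Coptidis Rhizoma and Zizyphi Fructus, each with 1 library per dose, had separate fits of 6 libraries, and their single libraries were compared as log2 ratios to the vehicle mean with a pseudocount of 0.5 CPM, which understates changes of low genes, and a limit of 2-fold. At these depths 1 CPM is 18 to 36 counts. The fits were also run on simulated data, with changes larger than those of any member called here. That simulation held no libraries that stand apart, so it does not cover the results given for the members.

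The alternatives were DESeq2 1.42.0, its size factors in edgeR, no filter on low counts, only the libraries compared, the replicate number as a block, each library left out in turn, and the 3 libraries that stand apart left out together. The 38 genes and the other lists were chosen with earlier results of these data known. Members called at the high dose are given in full, up to the 8 with the smallest p per comparison, and up to 4 genes of each other list, besides CDKN1A, CCND1 and MKI67.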

Additional observations from a re-analysis of the deposited data

Results flagged for a closer look

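The difference in dose response between Scutellariae Radix and Pinelliae Tuber was tested directly, as the high against low difference of Scutellariae Radix minus that of Pinelliae Tuber, and passed for 5 of the 38 genes (edgeR, adjusted p under 0.05), where 9.57% of all genes passed. These shares lie near each other and give no result about the 38 genes as a group. On the log2 scale the difference was 0.50 for CDC6, 0.41 for MCM10, 0.30 for ORC1, 0.29 for RRM2 and -0.33 for RFC2. CDC6, MCM10 and RRM2 were called without any 1 of the 12 libraries, whereas 8 of the 12 omissions ended the call of ORC1 and 8 that of RFC2. Without the 3 libraries that stand apart RFC2 was at -0.11 (adjusted p = 0.49) and the other 4 were called. With only the libraries compared in the fit 0 of the 5 were called.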

How the results depend on the processing

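Counts below are members called, of 38. None of the 69 member calls reversed under any alternative run, and 11 were kept under all of them. With DESeq2 size factors in edgeR the counts that moved by over 1.5 times were Bojungikgi-tang medium 1, Pinelliae Tuber high 2 and medium 1, and Zizyphi Fructus 0. DESeq2 gave Sayeok-tang high 7, medium 1, low 2 and high against low 1, Bojungikgi-tang high 4, medium 3 and low 1, fresh ginger medium 3, low 3 and high against low 3, dried ginger medium 2 and low 2, Pinelliae Tuber high 4, medium 2 and low 1, Scutellariae Radix low 1 and Zizyphi Fructus 5. With no filter on low counts they were Sayeok-tang high 0 and low 1, Bojungikgi-tang high 0 and medium 1, fresh ginger high 2, medium 0 and high against low 0, dried ginger high 4 and high against low 1, Pinelliae Tuber high 1, Scutellariae Radix medium 4, Zizyphi Fructus 4, and 3 for the difference in dose response between Scutellariae Radix and Pinelliae Tuber. With only the libraries compared they were Sayeok-tang high 1, low 2 and high against low 7, Bojungikgi-tang high 0 and high against low 4, fresh ginger high 4 and medium 0, dried ginger low 2 and high against low 8, Pinelliae Tuber high against low 0, Scutellariae Radix high against low 1, Scutellariae Radix against Pinelliae Tuber 0 and the dose response difference 0.

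Without the 3 libraries that stand apart they were Sayeok-tang high 7, medium 1, low 2 and high against low 4, Bojungikgi-tang high 6, medium 6 and low 1, fresh ginger medium 4, low 3 and high against low 3, dried ginger medium 3, low 3 and high against low 6, fresh against dried ginger 1, Pinelliae Tuber high 1, medium 3 and high against low 0, and Scutellariae Radix low 1. Calls over all genes moved in that fit as well. They went from 249 to 1595 for Bojungikgi-tang medium and from 298 to 130 for Pinelliae Tuber high against low, for example. The cause of these moves was not tested. The replicate numbers do not pair the samples: in no comparison did every pair of same-numbered libraries correlate above 0.1, and every library correlated best with its own number in only 2 comparisons, both of Pinelliae Tuber. With the replicate block Pinelliae Tuber high and medium had 1 each, and with the block within a code set fresh ginger high against low had 0.

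Leaving out each library in turn gave, against vehicle, 0 to 4 (Sayeok-tang), 0 to 1 (Bojungikgi-tang), 2 to 7 (fresh ginger), 3 to 6 (dried ginger), 0 to 8 (Pinelliae Tuber) and 6 to 10 (Scutellariae Radix) at the high dose. At the medium dose the ranges were 0 to 1, except 0 to 2 for Bojungikgi-tang and 3 to 10 for Scutellariae Radix. At the low dose they were 0 to 1, except 0 to 2 for Sayeok-tang and 0 to 0 for Bojungikgi-tang. High against low gave 0 to 0 for Sayeok-tang, Bojungikgi-tang and fresh ginger, 1 to 3 for dried ginger, 0 to 6 for Pinelliae Tuber and 5 to 17 for Scutellariae Radix. Scutellariae Radix against Pinelliae Tuber gave 6 to 13, the dose response difference 3 to 9 and Zizyphi Fructus 0 to 6. The single high-dose Coptidis Rhizoma library has no such check.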
